A study of Homo sapiens with 6 samples.

Results

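The regions described here are far distal accessible sites of moderate signal: the deposited tables place them more than 100 kb and at most 500 kb from the start of the gene they are named for, and their mean signal over the 6 libraries lies from 50 up to but below 300. This rule kept 18370 of 226920 regions (8.1%), named for 3813 genes. The libraries are ATAC-seq libraries (Tn5 transposase cuts accessible DNA and leaves adapters there) of A375, an established human melanoma cell line. They form 3 groups of 2: mock cells without treatment, and cells exposed to recombinant HMGA1 protein during 2 h or 18 h. The mock cells are labelled untreated, with no mention of a control protein or buffer. The labels give the mock cells no time, so the 2 h and 18 h groups are not each set against untreated cells of the same time. Each group's 2 libraries are labelled biological replicates, with nothing said of separate cultures, and the p-values therefore rest on a spread that may in part be technical.

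Distal accessible sites are often enhancers, stretches of DNA that bind transcription factors and can act on a gene start far away by looping of the chromatin, or sites where architectural proteins hold such loops. HMGA1 is a small chromatin protein that bends AT-rich stretches of DNA through its AT hooks. It was added here from outside the cells, and the comparisons ask where accessibility differed soon and later after the protein was added. A gene name here says which gene start the authors' annotation placed nearest, not which gene a region acts on.

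The regions were chosen by 2 measured values of the tables, the distance and the mean signal (normalised read counts averaged over all 6 libraries), and the rule uses no fold change. The median member had a mean signal of 94.6 and lay 188 kb from its named start, with quartiles of 66.6 and 150 for the signal and of 134 and 281 kb for the distance. At the farther distance limit, a KCNQ5 region at 499848 bases was in and a RYR2 region at 500315 bases was out. At the signal limits, regions of PAX5 (50.001) and TMPO (299.9998) were in, and regions of MKL2 (49.987) and TLE4 (300.054) were out. No column of the tables holds the value of 1 library, so levels per library cannot be printed; where a level of a group is given below, it was derived from the mean signal and the deposited fold changes and is called an implied level.

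The distances rest on the authors' choice of gene starts. RefSeq (GRCh38.p14, 1 start per gene, a table that is not complete) placed a protein-coding gene start within 100 kb of at least 3890 of the 17308 members on the chromosomes it covers (22.5%). Counting long non-coding RNA genes as well, 11287 members had a RefSeq start within 100 kb. By gene span, 8060 members (43.9%) lay inside the span of the gene they were named for, as the introns of very long genes reach this far, 446 (2.43%) inside another protein-coding gene, 3130 (17%) inside the span of a long non-coding RNA gene only, and 6734 (36.7%) in no such span. Exons, introns and untranslated regions were not separated here. The gene with most members was TENM2, a very long neuronal adhesion gene, with 33. Members often had neighbours: 9371 lay within 10 kb of another member and 2381 within 1 kb, so they are not independent of each other.

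Among the members, 174 held a whole RefSeq start window (250 bases before to 50 bases after the start), 119 windows of long non-coding RNA genes and 66 of protein-coding genes. Of these 174 members, 3 were called in a comparison, against 849 of all 18370 members. Their windows are shown because they are the sequence at hand from called regions. The first window, chr15:69751699-69751998 on the plus strand, belongs to a long non-coding RNA gene inside a region named for RPLP1, a ribosomal stalk protein gene 299 kb away. The next, chr2:172859892-172860141 on the plus strand and cut to the bases before the start, belongs to RAPGEF4, which encodes a cAMP-activated exchange factor for Rap GTPases; the tables put the same region 124 kb from another RAPGEF4 start. The last, chrX:46327625-46327924 on the minus strand, belongs to the long non-coding RNA gene LINC01186 in a region named for KRBOX4. Sequences are RefSeq's, 5′ to 3′ along the gene, and capitals mark matches to the motifs searched below.
LOC107984788: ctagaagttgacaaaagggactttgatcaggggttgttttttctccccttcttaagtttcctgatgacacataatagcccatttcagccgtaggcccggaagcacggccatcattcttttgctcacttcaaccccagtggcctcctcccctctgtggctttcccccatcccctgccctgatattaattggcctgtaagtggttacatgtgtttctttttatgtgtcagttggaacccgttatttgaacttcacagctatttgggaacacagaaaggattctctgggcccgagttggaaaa
RAPGEF4: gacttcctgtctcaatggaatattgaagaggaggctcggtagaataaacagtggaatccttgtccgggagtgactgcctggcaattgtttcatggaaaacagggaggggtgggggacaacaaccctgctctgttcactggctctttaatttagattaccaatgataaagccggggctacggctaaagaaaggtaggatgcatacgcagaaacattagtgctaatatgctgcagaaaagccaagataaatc
LINC01186: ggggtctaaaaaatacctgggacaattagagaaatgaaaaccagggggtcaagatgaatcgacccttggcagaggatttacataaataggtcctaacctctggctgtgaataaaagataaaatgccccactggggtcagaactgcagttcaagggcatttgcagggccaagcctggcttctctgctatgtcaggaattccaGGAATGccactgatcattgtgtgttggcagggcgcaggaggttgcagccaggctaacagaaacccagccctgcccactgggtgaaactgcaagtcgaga

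The RAPGEF4 region had a log2 fold change of -0.84 ± 0.22 (SE; adjusted p = 0.0179, DESeq2) at 2 h against mock and 0.80 ± 0.22 (adjusted p = 0.0121) at 18 h against 2 h in the authors' deposited table, with implied levels of 150 in mock, 84 at 2 h and 146 at 18 h. The LOC107984788 region had -0.59 ± 0.17 (adjusted p = 0.0454, DESeq2) at 2 h in the authors' deposited table. The LINC01186 region fell from 2 h to 18 h by 0.76 ± 0.16 (adjusted p = 0.000184, DESeq2 by the authors' deposited table). So this set held 2 start windows in regions that were lower at 2 h than in mock and 1 in a region that was lower at 18 h than at 2 h.

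The windows were searched on both strands for TGANTCA, the site of AP-1 (the FOS and JUN dimers that open many enhancers), GGAATG, the core of the TEAD site (the partner of YAP), and GGGCGG, the GC box of many housekeeping promoters; the motifs do not overlap in their letters. The AP-1 letters were in 55 of the 185 windows wholly inside members (29.7%), against 7.71% of 35114 RefSeq windows of this length and 12.4% of the 2465 windows inside any region of the tables with a mean signal from 50 to 300. For long non-coding RNA starts the shares were 32.8% inside members, 15.6% inside any region of the tables and 10.4% of all such windows. The GC box was in 24.3% of the member windows, 45% of all windows and 61.4% of the 2465 windows of that mean signal. The TEAD letters were in 13%, 14% and 12.8%. The median GC content was 50.7%, 58.7% and 65.3% in the same order. These shares are descriptions, and a match is not a bound site. No windows were matched for distance to the authors' gene starts, so a part of the distance rule in these shares was not tested. The LINC01186 window held a TEAD match at position 202, and the other windows above held none of the motifs. As examples of AP-1 matches, chosen for the highest signal among uncalled long non-coding RNA windows, chr10:4678021-4678320 (minus strand) is the start of MANCR and chr3:183285806-183286105 (plus strand) that of LOC107986160.
MANCR: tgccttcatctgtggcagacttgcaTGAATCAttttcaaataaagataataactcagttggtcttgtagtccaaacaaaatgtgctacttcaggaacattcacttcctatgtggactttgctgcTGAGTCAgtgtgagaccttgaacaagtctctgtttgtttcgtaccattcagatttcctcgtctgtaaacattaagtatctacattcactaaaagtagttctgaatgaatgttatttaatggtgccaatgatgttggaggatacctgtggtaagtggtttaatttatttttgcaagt
LOC107986160: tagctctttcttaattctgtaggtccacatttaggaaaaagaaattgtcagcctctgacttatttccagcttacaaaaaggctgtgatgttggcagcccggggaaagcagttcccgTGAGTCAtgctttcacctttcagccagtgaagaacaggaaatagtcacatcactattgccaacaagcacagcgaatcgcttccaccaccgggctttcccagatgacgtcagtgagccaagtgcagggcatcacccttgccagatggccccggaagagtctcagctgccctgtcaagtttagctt

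Both of these regions stayed uncalled by DESeq2 in the authors' deposited table, with log2 fold changes at 2 h of -0.12 ± 0.15 (SE; adjusted p = 0.885) for MANCR and -0.21 ± 0.15 (adjusted p = 0.727) for LOC107986160. Members also touched 14 microRNA hairpins, of which 1 was in a called region, where 849 of all 18370 members were called in a comparison. This was the one at MIR377, in a region 177 kb from the named gene RTL1, an imprinted retrotransposon-derived gene. That region fell at 2 h by 0.69 ± 0.15 (SE; adjusted p = 0.00218, DESeq2, authors' deposited table), with implied levels of 296 in mock, 184 at 2 h and 255 at 18 h. Its mature microRNAs are given with the seed (bases 2 to 8) in capitals. What is open or closed here is the DNA; the microRNAs were not measured.
hsa-miR-377-5p: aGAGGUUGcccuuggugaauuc
hsa-miR-377-3p: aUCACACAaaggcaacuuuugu

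At 2 h against mock, 187 members were higher and 65 lower among 16374 tested (1.14% and 0.397%; called by DESeq2 at an adjusted p under 0.05, authors' deposited table). Over all regions tested there, 0.856% were called higher and 0.421% lower, so the members' shares lay near the background. The higher members rose by a median of 1.82-fold and the lower ones fell by a median of 1.66-fold, and changes of at least 2-fold were seen in 48 and 2. The median log2 fold change of the tested members was -0.03, and that of all tested regions -0.06. With fold changes centred on the median of tested regions, 289 members were higher and 42 lower (87.3% higher, against 74.2% as deposited).

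The strongest called rise at 2 h lay 104 kb from F3, which encodes tissue factor, the cell-surface starter of coagulation (chromosome 1, 94646100 to 94646601). Its implied level was 36.6 in mock, 111 at 2 h and 33.3 at 18 h, so the 2 h group stood alone. The deposited log2 fold change was 1.60 ± 0.31 (SE, adjusted p = 0.000142, DESeq2, authors' deposited table) at 2 h. A PALM2 region also had 1.60 ± 0.33 at 2 h, but its mean signal of 52.2 was under the limit of 56.2 for testing there. A region 143 kb from TGFB2, a TGF-beta ligand gene (chromosome 1, 218488963 to 218489464), had implied levels of 51.9, 131 and 48 in mock, at 2 h and at 18 h, and rose by 1.33 ± 0.27 (adjusted p = 0.000546 by the authors' deposited table). For INHBA, whose product forms activin A, another TGF-beta family ligand, the implied levels were 75.3, 181 and 80.2 and the rise was 1.27 ± 0.23 (adjusted p = 4.23e-05) at 126 kb in the authors' deposited table. IGFBP3, which encodes a binding protein of insulin-like growth factors, had levels of 88.9, 216 and 91.3 at 224 kb and 1.28 ± 0.21 (adjusted p = 1.74e-06 by the authors' deposited table). In each of these the 2 h level lay far above mock while the 18 h level was close to it.

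The rest of the 10 leading called rises at 2 h came from the authors' deposited table as follows. DYNLRB2, a dynein light chain gene, had 1.38 ± 0.26 (SE) at 239 kb, and ATP1B1, a sodium pump subunit gene, 1.36 ± 0.27 at 101 kb. The adhesion genes CDH18, a cadherin, and TENM2 had 1.34 ± 0.30 and 1.31 ± 0.31 in the authors' deposited table, both inside their own spans. C13orf45 (now LMO7DN) had 1.35 ± 0.24 at 153 kb in the authors' deposited table. STX8, a SNARE gene of endosomes, had 1.38 ± 0.34 (adjusted p = 0.00728, DESeq2) at 2 h and 1.32 ± 0.34 at 18 h in the authors' deposited table. Its mean signal of 59.3 was under the limit for testing at 18 h, and its implied levels were 29.1, 76 and 72.7, so among these 10 it was the region that stood as high at 18 h as at 2 h.

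**Figure D1:**
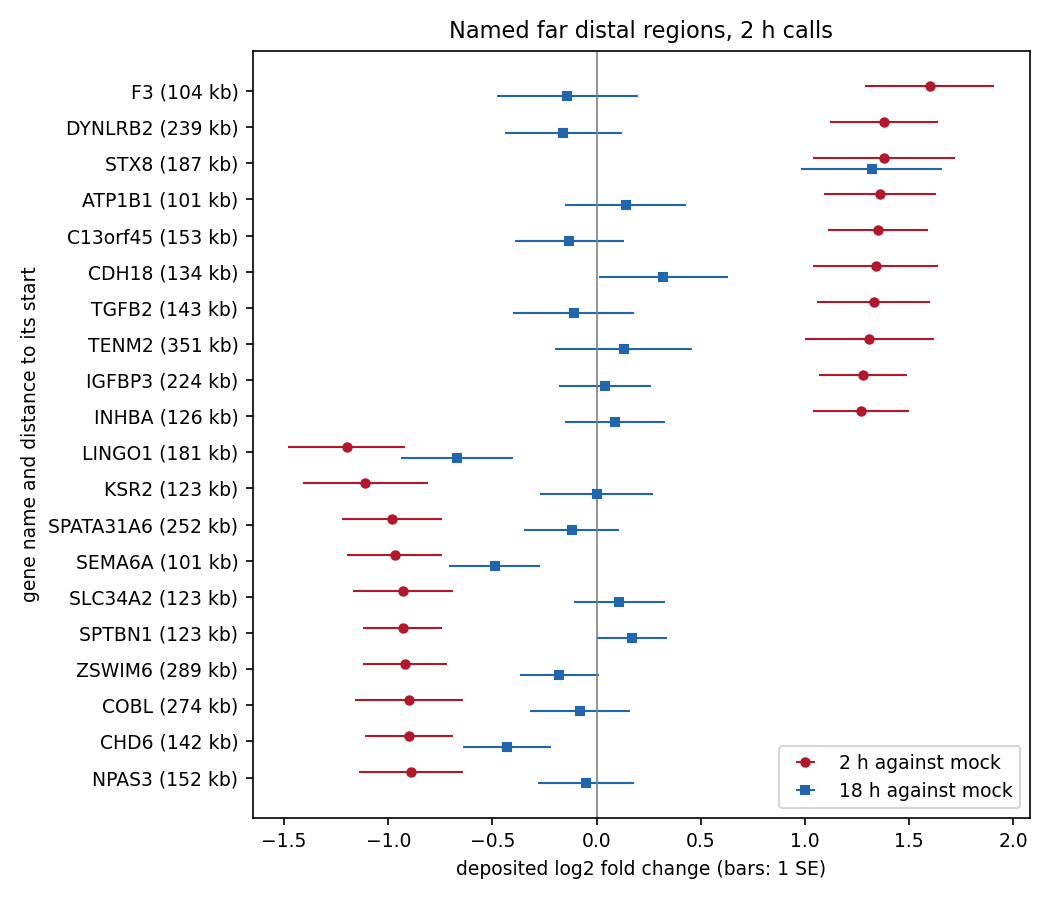
Deposited log2 fold changes against mock (x axis, bars 1 SE) at 2 h (circles) and 18 h (squares) for the 10 highest and 10 lowest called far distal regions at 2 h, labelled by gene name and distance. The 2 h values run from -1.20 at LINGO1 to 1.60 at F3, while most 18 h values lie near 0, with STX8 at 1.32 an exception.

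Of the falls at 2 h, the strongest was 181 kb from LINGO1, which encodes a neuronal membrane protein that limits myelination, at -1.20 ± 0.28 (SE; adjusted p = 0.00438, DESeq2 by the authors' deposited table), with implied levels of 107 in mock, 46.4 at 2 h and 67.1 at 18 h. KSR2, a scaffold gene of the MAPK cascade, had implied levels of 81.6, 37.7 and 81.8 and -1.11 ± 0.30 (adjusted p = 0.025 by the authors' deposited table). SPTBN1, a spectrin gene, had levels of 206, 108 and 231, and its region inside the gene span fell by 0.93 ± 0.19 (adjusted p = 0.000565 by the authors' deposited table). These 3 differ at 18 h: the KSR2 and SPTBN1 levels were back at or above mock and the LINGO1 level was not. The others were SPATA31A6 (-0.98 ± 0.24), the semaphorin gene SEMA6A (-0.97 ± 0.23), the phosphate transporter gene SLC34A2 (-0.93 ± 0.24) and ZSWIM6 (-0.92 ± 0.20) in the authors' deposited table. COBL, an actin nucleator gene, CHD6, a chromatin remodeller gene, and NPAS3, a neuronal transcription factor gene, followed with -0.90 ± 0.26, -0.90 ± 0.21 and -0.89 ± 0.25 (authors' deposited table). The SPATA31A6 region lies among near-identical gene copies of chromosome 9, so its reads may be shared with other copies.

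The comparisons with mock share the mock libraries, and 18 h against 2 h shares libraries with both, so the values are set side by side and their overlap is not counted as a result. The 187 members called higher at 2 h had a median log2 fold change of 0.86 at 2 h against mock, -0.11 at 18 h against mock and -0.99 at 18 h against 2 h. The 65 called lower had -0.73, -0.13 and 0.57. The difference between the 18 h and the 2 h value was tested region by region by the authors, in the comparison of 18 h with 2 h.

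At 18 h against 2 h, 116 members were higher and 687 lower, and every one of the 18370 members was tested (0.631% and 3.74%; DESeq2, authors' deposited table). Over all regions tested there, 0.498% were higher and 2.98% lower, again near the members' shares. The lower members fell by a median of 1.78-fold, 204 of them at least 2-fold, and were named for 541 genes. The higher ones rose by a median of 1.68-fold, 18 of them at least 2-fold.

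The lowest region lay 130 kb from the start used for PALM2 (now part of PALM2AKAP2), inside its span and 8.56 kb from another RefSeq coding start, and fell from 2 h to 18 h by 1.85 ± 0.34 (SE; adjusted p = 1.18e-05, DESeq2 by the authors' deposited table). SH3BP4, an endocytic adaptor gene, had -1.76 ± 0.34 and F3 -1.74 ± 0.31 (authors' deposited table). Near SMAD6, whose product restrains BMP signals, a region at 133 kb had implied levels of 116 in mock, 229 at 2 h and 72.1 at 18 h, so that the 18 h level ended below mock. Its fall was 1.67 ± 0.23 (adjusted p = 3.35e-10, DESeq2, authors' deposited table), but its 18 h value against mock, -0.68 ± 0.24, was not called (adjusted p = 0.280). The UBE2E2 region, near a ubiquitin-conjugating enzyme gene, had implied levels of 109, 173 and 54.1 and fell by 1.68 ± 0.24 (adjusted p = 2.24e-09 by the authors' deposited table). The further leading falls were GSDMC, a pore-forming gasdermin gene (-1.59 ± 0.24), the casein kinase gene CSNK1G3 (-1.58 ± 0.26), DYNLRB2 (-1.54 ± 0.26), MSTN, which encodes the muscle growth inhibitor myostatin (-1.53 ± 0.33), and the insulin receptor substrate gene IRS1 (-1.49 ± 0.29), in the authors' deposited table.

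Among regions that rose from 2 h to 18 h, ZNF521, a zinc finger gene, had 1.37 ± 0.35 (SE; adjusted p = 0.00465, DESeq2), FAF1 1.30 ± 0.31 and CCDC192 1.22 ± 0.23 in the authors' deposited table. The CCDC192 region had implied levels of 129 in mock, 69.5 at 2 h and 162 at 18 h, with the 2 h group lowest. ATP6AP1L (1.22 ± 0.35), TRHDE (1.18 ± 0.33), VRK2 (1.17 ± 0.32) and TTC33 (1.16 ± 0.31) followed in the authors' deposited table. KSR2, C14orf145 (now CEP128, a centriole gene) and SPTBN1 had 1.12 ± 0.30, 1.11 ± 0.28 and 1.09 ± 0.19 in the authors' deposited table. Apart from CCDC192, C14orf145 and SPTBN1, these regions had mean signals from 50.1 to 67 and SEs from 0.30 to 0.35.

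At 18 h against mock, 2 members were higher and 6 lower among 8418 tested (0.0238% and 0.0713%; DESeq2, authors' deposited table). Over all 55341 regions tested, 0.00542% were called higher and 0.116% lower. The unadjusted Wald p was under 0.05 for 643 of the 8418 members and for 4367 of the 55341 regions. The 9952 members below a mean signal of 101 were not tested in this comparison. The higher ones were a region named for REG3A, a secreted lectin gene, at 0.93 ± 0.19 (SE; adjusted p = 0.00421, DESeq2), and one inside PAX5, a B cell transcription factor gene, at 0.83 ± 0.18 (adjusted p = 0.0125 by the authors' deposited table),. The REG3A region lay inside another protein-coding gene's span, and had implied levels of 109 in mock, 173 at 2 h and 209 at 18 h. At 2 h it had 0.67 ± 0.19 (adjusted p = 0.0481, DESeq2 by the authors' deposited table), so both time points were called higher than mock. The PAX5 region had levels of 127, 134 and 226, with 18 h apart from the other 2 groups.

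The lower regions at 18 h were named for UBE2E2 (-1.02 ± 0.24), HIVEP3 (-0.89 ± 0.20), INPP4B (-0.87 ± 0.21), CCND1 (-0.73 ± 0.14), C12orf75 (-0.64 ± 0.14) and SLC24A2 (-0.63 ± 0.16) in the authors' deposited table (SE). INPP4B encodes a phosphoinositide phosphatase that dampens AKT signalling, and its region lay 2.19 kb from another RefSeq coding start. CCND1 encodes cyclin D1, which drives entry into the cell cycle; its region had implied levels of 335 in mock, 318 at 2 h and 202 at 18 h. The C12orf75 region had 389, 231 and 250, and it fell at 2 h as well, by 0.75 ± 0.14 (adjusted p = 0.000111, DESeq2 by the authors' deposited table). So CCND1 was called at 18 h, where it was also lower than at 2 h, and C12orf75 was called at both times. Centred within bins of mean signal, 1 of these 6 calls remained, that of CCND1, and both higher calls were kept.

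**Figure D2:**
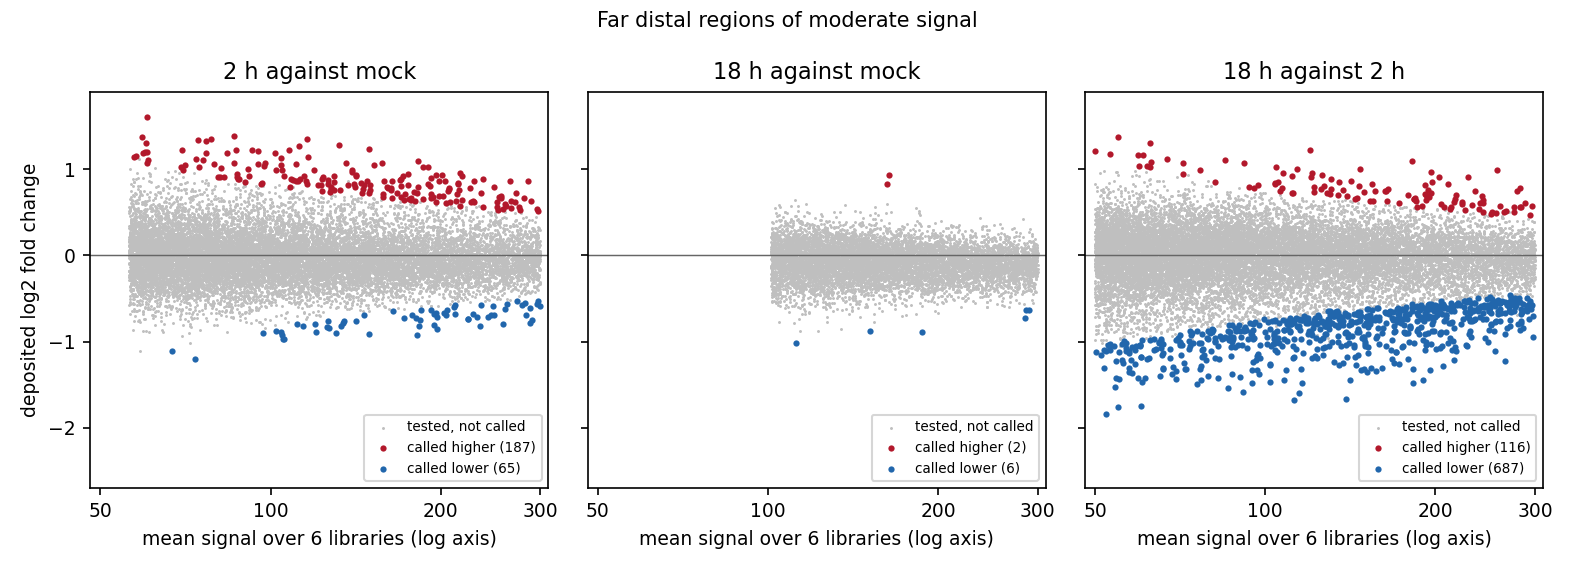
Deposited log2 fold change (y axis) against the mean signal over the 6 libraries (x axis, log scale) for the tested far distal regions in each comparison, with called regions in colour. Calls at low signal needed larger changes, and 18 h against mock starts at a mean signal of 101.

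The mean signal set which changes could be called. At 2 h, the median SE fell from 0.28 for members of mean signal 50 to 100 to 0.16 for those of 200 to 300, and the smallest called change from 0.83 to 0.52 on the log2 scale (authors' deposited table). The share called higher at 2 h was 0.563% in the first of these bins and 1.96% in the last, and the share called lower 0.0384% and 1.21%. At 18 h against 2 h, 1.75% and 7.37% were lower. A member of low signal that was not called may therefore be unchanged or may have changed by less than could be called. Regions at the same distance with a mean signal of 300 or more, with a median SE of 0.12, had 1.61% higher and 1.71% lower at 2 h and 8.63% lower at 18 h against 2 h.

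At the same mean signal, the share of regions higher at 2 h was 0.826% at 10 to 100 kb from the named start, 0.975% at 100 to 200 kb, 1.31% at 200 to 300 kb, 1.32% at 300 to 400 kb, 1.45% at 400 to 500 kb and 1.55% beyond 500 kb. The share lower at 18 h against 2 h was 2.99% at 10 to 100 kb, 3.54%, 3.86%, 4.33% and 3.7% in the 4 bins of the members, and 3.74% beyond 500 kb. The median SE of the members was 0.24 in each of the 4 bins at 2 h. No test of these differences was made, since neighbouring regions are not independent. By gene span, 0.852% of members inside their named gene and 1.38% of those in no gene span were higher at 2 h. By chromosome at 2 h, chromosome 13 had the highest share higher, with 11 higher and 0 lower of 598 tested (1.84% and 0%). Chromosome 11 had the highest share lower, with 2 higher and 6 lower of 670 (0.299% and 0.896%). Over all tested members the shares were 1.14% and 0.397%. Other chromosomes came close, with 1.67% higher on chromosome 8 and 0.86% lower on chromosome 12, so these 2 do not stand apart.

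**Figure D3:**
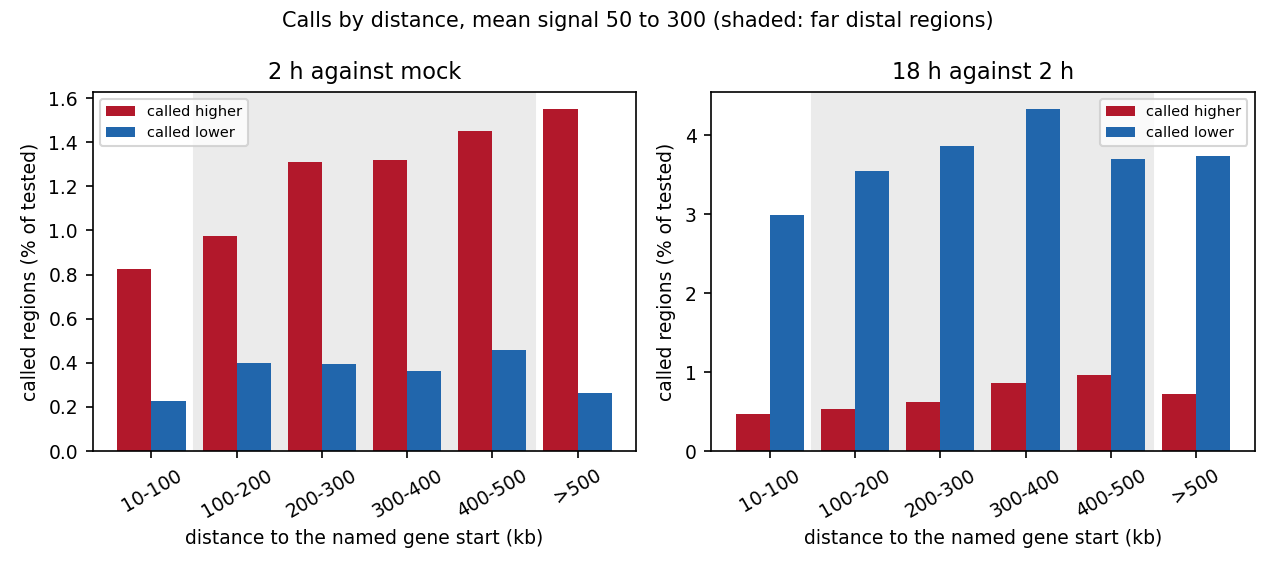
Share of tested regions called higher or lower (y axis, %) by distance to the named gene start (x axis, kb) for regions of mean signal 50 to 300, at 2 h against mock (left) and 18 h against 2 h (right). The far distal regions are shaded; higher calls at 2 h run from 0.826% at 10 to 100 kb to 1.55% beyond 500 kb.

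Most called members stood alone. At 2 h, 233 of 252 had no other called member within 50 kb, and at 18 h against 2 h 640 of 803 had none. Of the 63 pairs at 18 h against 2 h, 57 moved in one direction. In that comparison 687 of the 803 calls were falls, so unrelated neighbours would often share a direction too. There were 11 clusters of 3 or more. Falls alone were held by 10 of them, and 1, named for PCSK1, held 2 falls and 1 rise. Whether neighbours shared a direction more often than unrelated regions would was not tested.

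Insulin receptor substrates are adaptors that pass signals from the insulin and IGF receptors to PI3 kinase, and regions named for both main ones clustered. On chromosome 2 (226475589 to 226484374), 3 IRS1 regions lay 315 to 324 kb from the start, in no gene span, over 8.79 kb. Their implied levels in mock, at 2 h and at 18 h were 60, 102 and 50.3 for the first, 177, 302 and 168 for the next and 57.8, 125 and 44.6 for the last. The 2 h level was the highest in each. The later 2 rose at 2 h by 0.77 ± 0.17 and 1.11 ± 0.28 (SE; adjusted p = 0.00158 and 0.0111, DESeq2), and the first had 0.76 ± 0.29 (adjusted p = 0.236 by the authors' deposited table),. Of the 14 members named for IRS1, 5 fell from 2 h to 18 h and 0 rose.

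For IRS2, 7 members lay within 53.2 kb on chromosome 13 (109336711 to 109389896), 397 to 449 kb from the start. Of these, 3 rose at 2 h, by 0.81 ± 0.20, 0.72 ± 0.19 and 0.64 ± 0.16 (SE, authors' deposited table), and the other 4 had values from 0.19 to 0.58. At 18 h against mock these 7 had values from -0.41 to 0.05 in the authors' deposited table. Then 4 of the 7 fell from 2 h to 18 h, the lowest by 1.05 ± 0.16 (adjusted p = 5.67e-08, DESeq2, authors' deposited table). Of all 23 IRS2 members, 3 of 21 tested rose at 2 h and 6 of 23 fell from 2 h to 18 h.

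The TGFB2 cluster held 4 members over 11.9 kb. The one described above rose at 2 h, and the one farthest from the start, at 153 kb, had 0.63 ± 0.19 (SE; adjusted p = 0.0541, DESeq2, authors' deposited table), while the other 2 had 0.23 and 0.08. From 2 h to 18 h, 3 of the 4 fell. Near ACTBL2, an actin-like gene, 4 of 4 members over 19 kb fell from 2 h to 18 h, and the one with the strongest signal rose at 2 h by 0.95 ± 0.17 (adjusted p = 2.52e-05, DESeq2, authors' deposited table). At SHROOM3, which organises apical actin, and CRIM1, a membrane protein gene that binds BMPs, 3 of 3 members in each cluster fell from 2 h to 18 h. Their lowest values were -1.47 ± 0.24 and -1.34 ± 0.19 in the authors' deposited table. A cluster ends at its outermost called members, so the share called inside it follows in part from how it was drawn. Of all members named for ACTBL2, 5 of 16 fell from 2 h to 18 h. For SHROOM3 it was 4 of 17, for CRIM1 3 of 14 and for TGFB2 3 of 15. The other clusters of falls were named for FOXA2 and SSTR4 (4 of 9 members inside), C9orf3 (4 of 14), FMN1 (3 of 6) and LPP (3 of 6). A RefSeq coding start lay inside the C9orf3 and LPP clusters and 18.7 kb from the FOXA2 one, so the named starts are not the nearest in RefSeq there.

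**Figure D4:**
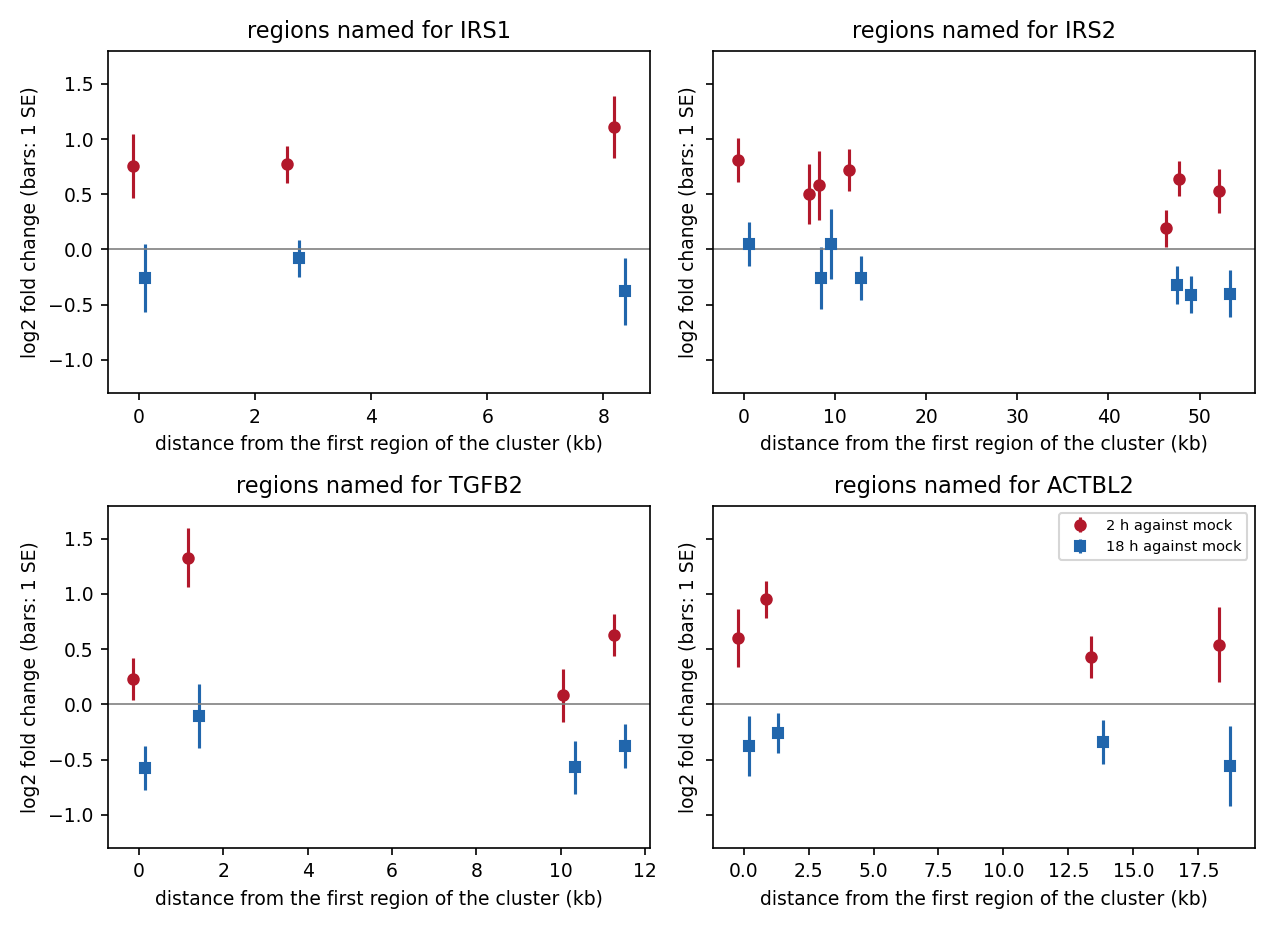
Deposited log2 fold changes against mock (y axis, bars 1 SE) at 2 h (circles) and 18 h (squares) of the members in 4 clusters, by distance from the first region (x axis, kb). Each 2 h value shown lies above the 18 h value of the same region, and the IRS1 regions reach 1.11 at 2 h.

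Neighbours did not always move together. Near LPIN1, which encodes a phosphatidate phosphatase of fat synthesis, a region 322 kb from the start had implied levels of 138, 255 and 118 in mock, at 2 h and at 18 h, and one at 445 kb had 284, 163 and 325. The deposited 2 h changes were 0.89 ± 0.19 and -0.80 ± 0.16 (SE; adjusted p = 0.00101 and 0.000439, DESeq2, authors' deposited table). So at 2 h 1 region named for this gene was higher than in mock and another lower. LPIN1 was singled out after its values were seen, as was EXT1, which encodes a heparan sulfate polymerase. Of the 20 EXT1 members tested at 2 h, 3 were called higher and 0 lower. Those 3 rose by 0.68 ± 0.15, 0.80 ± 0.15 and 0.88 ± 0.22 (SE, authors' deposited table), 2 of them inside the gene span. Values of EXT1 regions at 2 h ran from -0.35 to 0.88, so the named locus did not rise as a whole.

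Gene lists were read through the names of the members, and the calls are those of DESeq2 over the whole authors' deposited table. The list of receptor tyrosine kinase signalling had 8 of 147 tested members higher and 0 lower at 2 h (5.44% higher, against 1.14% of the members; median log2 fold change 0.08, against -0.03), and 16 lower and 1 higher of 157 at 18 h against 2 h (10.2% lower, against 3.74% of the members). IRS2 held 6 of these 16 falls and IRS1 5. Without the IRS1 and IRS2 regions, a count added after seeing the data, 3 of 113 were higher at 2 h (2.65%) and 5 of 120 lower at 18 h against 2 h (4.17%), the latter near the share of the members. At 2 h IRS1 and IRS2 held 5 of the 8, and the neurotrophin receptor genes NTRK2 (1.15 ± 0.31, SE) and NTRK3 (1.02 ± 0.28 and 0.92 ± 0.21) the others in the authors' deposited table. The TGF-beta and BMP list had 4 of 109 higher (3.67%) and 0 lower at 2 h, named for INHBA (2 regions), TGFB2 and SMAD6, with a median of 0.04. From 2 h to 18 h, 8 of its 122 fell (6.56%), among them LTBP1, which anchors latent TGF-beta in the matrix, at -1.19 ± 0.31 in the authors' deposited table. Earlier results on IRS and TGF-beta regions of these data were known when the lists were drawn up, so their direction is not independent evidence.

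The adhesion, guidance and matrix lists had shares higher at 2 h of 1.12%, 0.565% and 0.87%, at or below the 1.14% of the members, and shares lower at 18 h against 2 h of 5.56%, 2.46% and 4.76%, against 3.74%. Of cadherin and cell adhesion members, 2 of 179 rose at 2 h, CDH18 and PCDH18, a protocadherin (0.80 ± 0.19, SE), and 11 of 198 fell from 2 h to 18 h, PCDH18 by 1.31 ± 0.20, in the authors' deposited table. Among axon guidance and ephrin genes 1 of 177 rose at 2 h (SEMA3A) and 2 fell: SEMA6A, and EPHA3, an ephrin receptor gene, at -0.75 ± 0.18 in the authors' deposited table. From 2 h to 18 h, 5 of 203 of that list fell and 2 rose. Of the extracellular matrix list, 1 of 115 rose at 2 h: COL4A2, a basement membrane collagen gene, by 1.02 ± 0.18 (adjusted p = 1.03e-05, DESeq2, authors' deposited table), with implied levels of 151, 307 and 113. From 2 h to 18 h, 6 of 126 matrix members fell, including COL5A1 (-0.98 ± 0.23) and COL5A2 (-0.88 ± 0.25) in the authors' deposited table.

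**Figure D5:**
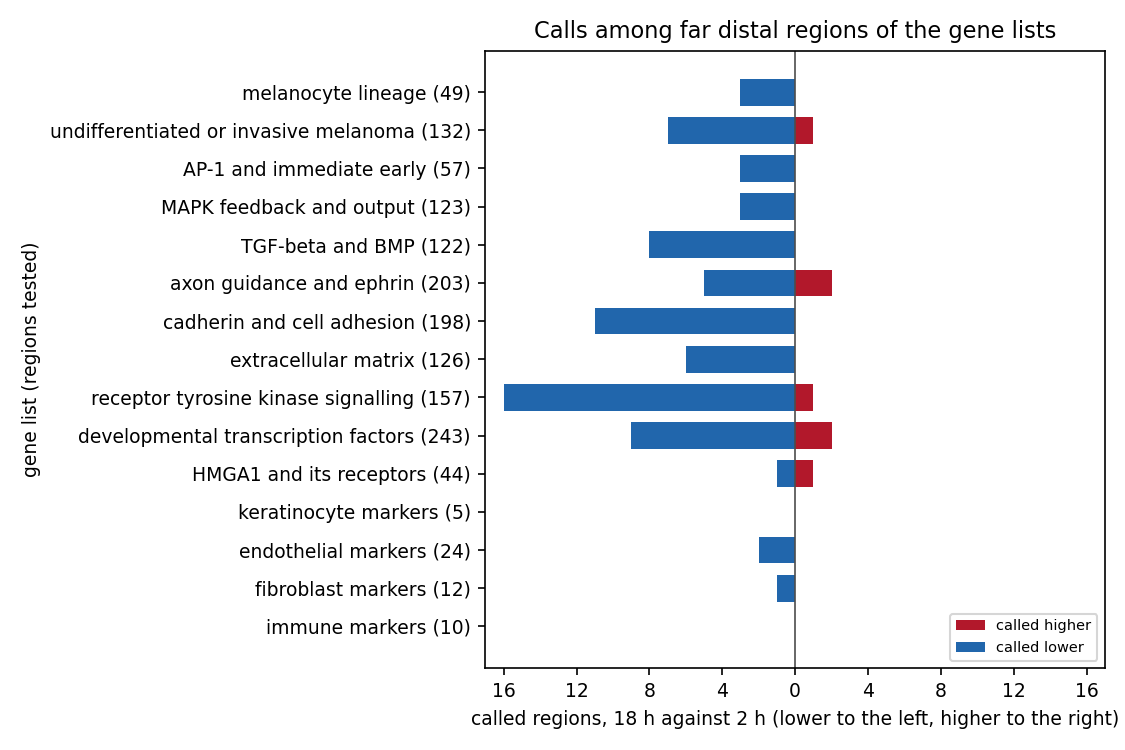
Number of called far distal regions at 18 h against 2 h (x axis, lower to the left, higher to the right) for each gene list, with the number tested in brackets. Receptor tyrosine kinase signalling has 16 lower and 1 higher of 157, and the keratinocyte and immune lists have none.

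The melanocyte and the undifferentiated lists had 2.38% and 0.813% higher at 2 h and 6.12% and 5.3% lower at 18 h against 2 h, shares that rest on few regions. In the melanocyte lineage list, 1 of 42 rose at 2 h, at KIT, the receptor of stem cell factor, 132 kb upstream (0.78 ± 0.17, SE), and 3 of 49 fell from 2 h to 18 h, at KIT, TFAP2B and ZEB2, in the authors' deposited table. In the undifferentiated or invasive list, VGLL3, a TEAD cofactor gene, rose at 2 h by 0.92 ± 0.24 and a SOX9 region 444 kb away fell by 0.58 ± 0.17 among 123 tested in the authors' deposited table. The SOX9 region at 480 kb showed 0.38 ± 0.19 (adjusted p = 0.461, DESeq2) at 2 h and fell from 2 h to 18 h by 0.90 ± 0.19, in the authors' deposited table. That list had 7 lower and 1 higher of 132 at 18 h against 2 h, 3 of the lower at THBS1 (297 to 389 kb from its start). AP-1 and immediate early genes had 1 of 50 higher at 2 h (2%), at MYC (0.59 ± 0.15 in the authors' deposited table). Of that list, 3 of 57 were lower at 18 h against 2 h (5.26%). MAPK feedback and output genes had 1 of 110 lower at 2 h (0.909%), at DUSP4, an ERK phosphatase (-0.63 ± 0.18 in the authors' deposited table). Among the members, 1.14% were higher and 0.397% lower at 2 h, and 3.74% lower at 18 h against 2 h. From 2 h to 18 h, 3 of 123 MAPK members fell (2.44%), with DUSP10, a phosphatase of stress kinases, at -1.26 ± 0.24 in the authors' deposited table.

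Developmental transcription factors had 3 higher and 2 lower of 216 at 2 h, including FOXA2 (0.86 ± 0.17, SE), SOX11 (0.86 ± 0.24) and SOX5 (-0.81 ± 0.17) in the authors' deposited table, and 9 lower and 2 higher of 243 from 2 h to 18 h. Its shares of 1.39% higher at 2 h and 3.7% lower at 18 h against 2 h were close to those of the members. The list of HMGA1 and its receptors had 1 of 41 higher at 2 h (2.44%). It lay inside GPC6, a cell-surface heparan sulfate proteoglycan gene (0.54 ± 0.14, adjusted p = 0.0195, DESeq2, authors' deposited table). From 2 h to 18 h this region fell by 0.59 ± 0.14 and another GPC6 region rose by 1.07 ± 0.29 in the authors' deposited table. These were the 1 lower and 1 higher of 44 in that comparison (2.27% each), against 3.74% and 0.631% of the members. Among endothelial marker genes, 2 of 23 were higher at 2 h (8.7%) and 2 of 24 lower from 2 h to 18 h (8.33%). The 2 h rises were at KDR (0.92 ± 0.25) and CDH5 (0.67 ± 0.15) in the authors' deposited table, 112 and 265 kb from the starts. The members' shares were 1.14% and 3.74%, and the marker lists rest on few regions. Fibroblast markers had 0 of 11 called at 2 h by DESeq2 (4 at an unadjusted p under 0.05). From 2 h to 18 h 1 of 12 was lower (8.33%), at DCN (-0.59 ± 0.18), in the authors' deposited table. Keratinocyte markers had 0 of 5 and immune markers 0 of 10 called at 18 h against 2 h by DESeq2, and 0 and 0 at an unadjusted p under 0.05. The members of these lists were named for 1 gene each, TP63 and PTPRC. These regions say nothing of expression of the markers, and a part of other cells in the calls was not tested.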

How the data were processed

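Libraries were made by a company from treated cells stored frozen, and sequenced from both ends, per the labels' protocols. Reads were demultiplexed with bcl2fastq 2.17, the build was hg38 and DESeq2 was used, per the submitters' processing notes. Not given in the sources used here are the aligner, the peak caller, the counter and whether cut sites were shifted. The 3 deposited tables hold the authors' mean signal (counts divided by size factors), log2 fold change with SE, the deposited Wald score, deposited p-value with its adjusted p, and the distance in bases (unit: other). Subtracting the 2 h from the 18 h log2 fold change gave the deposited 18 h against 2 h value with a largest deviation of 1.02e-14, so 1 fit gave all 3. Library depth is unknown, and 0 columns hold 1 library.

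Repeat rows of a region were reduced to the nearest gene. Regions with a deposited adjusted p of exactly 1, all below a mean signal of 56.2, 101 and 41.7 (2 h, 18 h and 18 h against 2 h), counted as not tested. Calls are the authors' adjusted p under 0.05 over the whole table; no count model was run, since the tables hold no values per library. Implied group levels assume that the mean signal is the average of 3 group levels in the deposited ratios, an approximation. Of 3813 gene names, 3744 matched RefSeq (GRCh38.p14), 159 through an older name. Sequences came from RefSeq start windows, as no genome was used here.

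Named regions were the 10 called members with the largest change per direction, 1 per gene, without LOC, LINC, MIR and antisense names, up to 3 called members per gene list (or the smallest p), and clusters of 3 or more called members with gaps of at most 50000 bases. The members and the 15 lists were chosen with earlier results of these data known. Centring and adjustment were tested on simulated data (python 3.11.15, numpy 2.4.6, pandas 2.3.3, scipy 1.17.1).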

Additional observations from a re-analysis of the deposited data

Results flagged for a closer look

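At 18 h against 2 h, 803 of the 18370 members were called by the authors' own test (DESeq2, adjusted p under 0.05). Of the members 0.631% were higher and 3.74% lower, against 0.498% and 2.98% of all regions tested. The mock group carries no time label, so a part of time alone in these calls was not tested. Among the regions named in the comparisons with mock, those called at 18 h against 2 h are given with their log2 fold change from 2 h to 18 h (authors' deposited table). Lower at 18 h were F3 (-1.74), UBE2E2 (-1.68), DYNLRB2 (-1.54), C13orf45 (-1.48), TGFB2 (-1.45), INPP4B (-1.35), IGFBP3 (-1.24), ATP1B1 (-1.22), TENM2 (-1.18), INHBA (-1.18), CDH18 (-1.02), HIVEP3 (-0.91) and CCND1 (-0.66). Higher at 18 h were KSR2 (1.12), SPTBN1 (1.09), SLC34A2 (1.03), SPATA31A6 (0.86), NPAS3 (0.84), COBL (0.82), PAX5 (0.75) and ZSWIM6 (0.74). Each of these comparisons uses the 2 h libraries that also enter 2 h against mock, so a chance excursion of those libraries would appear in both; that was not tested. No group had enough values per library for a search for outlying libraries.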

How the results depend on the processing

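No paired analysis was possible because the deposited tables hold no values per library. For the same reason no library was left out, and no other normalization or count model was run. Counts of called members follow as higher and lower. With adjusted p under 0.01 they were 95 and 23 at 2 h, 1 and 1 at 18 h, and 52 and 388 at 18 h against 2 h. With adjusted p under 0.10, 104 were lower at 2 h, 18 lower at 18 h and 198 higher at 18 h against 2 h. Centring on the median tested region gave 289 and 42 at 2 h and 1 lower at 18 h, and centring within bins of mean signal also left 1 lower at 18 h. With no filter on low signal, 37 were lower at 2 h and 3 lower at 18 h. Members of mean signal 50 to 150 gave 97 and 22, 0 and 1, and 53 and 363 in the 3 comparisons. Those 150 to 400 kb away gave 113 and 37, 1 and 3, and 72 and 410. Both limits leave fewer regions to count, and the signal limit also lowered the shares. With it, 0.825% were higher and 0.187% lower at 2 h, and 2.64% lower at 18 h against 2 h. The distance limit gave 1.17%, 0.383% and 3.79%, near the 1.14%, 0.397% and 3.74% of all tested members. Leaving out regions with a RefSeq coding start within 100 kb was added after seeing the data. This also dropped the 1062 members on the chromosome that RefSeq table does not cover. It gave 149 and 49 of 11962 tested at 2 h (1.25% and 0.41%) and 2 and 5 of 6162 at 18 h. At 18 h against 2 h it gave 86 and 524 of 13418 (0.641% and 3.91%). Members under a mean signal of 101 were left untested at 18 h against mock by the filter of that comparison, and library depth is unknown.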
